A study of Mus musculus with 18 samples.

Results

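Muscle runs its fastest contractions on glucose, and the genes described here are the 38 that encode the enzymes, transporters and regulatory subunits of glycolysis and of glycogen storage and breakdown in mouse skeletal muscle. They, and the wider lists used below, were chosen by name with earlier results of these data known, so shares called in them are descriptive. The members are the rows of these 38 genes in a muscle RNA-seq table of 23420 genes, and all 38 were found. The RNA came from hindlimb muscle of female C57BL/6J mice, an inbred strain with no added genetic change or treatment, killed at 2 months (2 m, young), 20 months (20 m, aged) or 28 months (28 m, very old), with 3 mice per age sequenced separately and the libraries of each age numbered 1 to 3. DNA of the same muscles, and of T cells sorted from the spleens, was pooled over the 3 mice of an age, and fragments rich in methylated CpG were pulled out by a protein domain that binds them (MBD-seq). The whole muscle was frozen and ground, so several hindlimb muscles and all their cell types were mixed, and fewer cells of a type and less RNA per cell cannot be told apart. Each mouse is 1 sample of 1 age, so the ages compare different animals and not the same animals over time.

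Glycolysis splits glucose into pyruvate, and pyruvate is turned into lactate or enters the mitochondria through pyruvate dehydrogenase. Muscle holds its own glucose store as glycogen, which glycogen phosphorylase opens at the start of contraction and glycogen synthase rebuilds at rest. Fast fibres carry most glycolytic enzyme, often as a muscle form encoded by its own gene beside a form used in other tissues, whereas slow fibres burn more lactate and fat. The members were placed by role in 7 groups: glucose uptake and phosphorylation (4 genes), upper glycolysis (9), lower glycolysis (7), lactate and pyruvate (5), side reactions (2), glycogen breakdown (5) and glycogen synthesis (6).

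The deposited values are normalized counts, that is, reads per gene divided by a scaling factor of the library, and they rest on 20203833 to 71115244 reads on genes per library. Values of 37 members passed the limit of a mean of 10 normalized counts, and Aldoc, the aldolase of brain, stayed below it with 3 to 27 reads per library and was not tested. The ribosomal RNA precursor Rn45s took 24.0 to 30.4% of the gene reads in the libraries numbered 1 and 2 and 8.81 to 10.4% in those numbered 3 at every age, so the libraries numbered 3 stand apart, and results that rest on them are also given without them. The 38 members held 3.40 to 5.42% of all gene reads and 4.88 to 5.95% of the gene reads other than Rn45s. The tissue label was checked against fibre markers: the summed normalized count of 12 fast fibre genes was 5508947 to 7629515 and that of 10 slow fibre genes was 18359 to 329936, and all 22 genes were detected.

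The members were very unequal in level, and for 6 enzymes and carriers 1 form held nearly all of the RNA. Per kilobase of exonic length, Aldoa, which splits the sugar into its 3-carbon parts, stood first at 2 m with 345687 normalized counts and supplied 29.5 to 31.8% of the members' reads in each library. Eno3 (muscle enolase, 122949 per kb) and Pygm (muscle glycogen phosphorylase, 115473 per kb) followed, and Pygm spread from 2 m library 2 to 2 m library 3 over a range that includes the level of Eno3. Pgam2 (muscle phosphoglycerate mutase, 64531 per kb), Ldha (lactate dehydrogenase A, 56575), Tpi1 (triose phosphate isomerase, 48365), Pfkm (muscle phosphofructokinase, 47793) and Pkm (pyruvate kinase, 36738) came next. Tpi1 and Pfkm were closer to each other than the spread of Pfkm between the 2 m libraries.

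In every library Pfkm made up 99.5 to 99.7% of the summed level per kb of the 3 phosphofructokinase genes, beside Pfkl (liver form) and Pfkp (platelet form). Eno3 held 99.9% or more of Eno1 and Eno3, Pgam2 held 99.6 to 99.8% of Pgam1 and Pgam2, and Pygm held 99.9% of Pygm and Pygb, the brain phosphorylase. Of the glucose carriers, the insulin-responsive Slc2a4 (GLUT4) held 97.2 to 98.4% beside the widespread Slc2a1 (GLUT1). Hk1, the widespread hexokinase, held 2.21 to 5.23% beside Hk2, the hexokinase of muscle. Reads that aligned to more than 1 place (20.5 to 22.3% of all reads) were left out by the counting. Annotated copies named after their gene numbered 5 for Aldoa, 3 each for Gapdh, Pgk1 and Ldha, 2 for Pgam1 and 1 for Ldhb. Copies under other names were not counted. The levels of these genes, and of Eno1 with 45 to 244 reads per library, are therefore uncertain, and those of other members may be.

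The sequences just before the start of 5 members are shown because these genes carry the changes below: Pdk4 and Ppp1r3c rose at 20 m and were not called at 28 m, Gbe1 and Ldhb rose at both ages, and Pgam2 fell at both. They are the 250 bases upstream of the RefSeq start in GRCm38.p6, read 5′ to 3′ on the strand of the gene: Pdk4 at chr6:5496279-5496528 (minus strand), Ppp1r3c at chr19:36736605-36736854 (minus strand), Gbe1 at chr16:70313699-70313948 (plus strand), Ldhb at chr6:142507958-142508207 (minus strand) and Pgam2 at chr11:5803797-5804046 (minus strand). Capitals mark matches, on either strand, to 6 motifs. These are the CCAAT box, the core ACGTG bound by hypoxia-inducible factors, the E-box CAGCTG bound by myogenic factors, the TATA box read as TATAAA, the letters GTAAACA bound by forkhead factors, and the AT-rich MEF2 motif.
Pdk4: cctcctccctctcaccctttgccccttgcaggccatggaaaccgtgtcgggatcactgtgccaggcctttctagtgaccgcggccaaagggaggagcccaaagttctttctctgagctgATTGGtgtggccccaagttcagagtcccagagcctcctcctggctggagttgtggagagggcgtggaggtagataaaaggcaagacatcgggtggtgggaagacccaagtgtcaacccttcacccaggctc
Ppp1r3c: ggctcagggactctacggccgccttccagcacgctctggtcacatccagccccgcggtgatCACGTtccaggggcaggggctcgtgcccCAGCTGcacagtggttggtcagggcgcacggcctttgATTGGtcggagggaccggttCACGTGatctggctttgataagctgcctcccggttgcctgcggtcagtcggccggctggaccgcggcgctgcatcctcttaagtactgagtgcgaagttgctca
Gbe1: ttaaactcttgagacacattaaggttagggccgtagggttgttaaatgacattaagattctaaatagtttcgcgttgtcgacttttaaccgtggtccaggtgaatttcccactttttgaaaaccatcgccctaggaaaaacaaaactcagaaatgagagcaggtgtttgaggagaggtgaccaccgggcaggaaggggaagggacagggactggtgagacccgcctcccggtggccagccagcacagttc
Ldhb: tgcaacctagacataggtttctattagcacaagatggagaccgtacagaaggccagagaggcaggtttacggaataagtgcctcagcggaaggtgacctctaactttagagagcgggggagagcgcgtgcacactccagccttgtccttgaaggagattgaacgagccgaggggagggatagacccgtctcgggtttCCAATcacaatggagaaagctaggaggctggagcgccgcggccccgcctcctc
Pgam2: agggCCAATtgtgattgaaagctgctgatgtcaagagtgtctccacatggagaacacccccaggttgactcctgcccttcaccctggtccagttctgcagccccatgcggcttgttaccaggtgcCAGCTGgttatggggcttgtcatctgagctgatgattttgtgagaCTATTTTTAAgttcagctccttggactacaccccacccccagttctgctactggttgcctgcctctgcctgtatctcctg

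The Ppp1r3c sequence held the hypoxia core 3 times, 189, 104 and 103 bases before the start, of which the last 2 overlap as a palindrome, an E-box at 161 bases and a CCAAT box at 124 bases. The Pgam2 sequence held an E-box at 125 bases and a MEF2 match at 80 bases, beside a CCAAT box at 246 bases. Pdk4 and Ldhb each held a CCAAT box, at 131 and 53 bases, and Gbe1 held none of the 6 motifs in this window. The number of CpG sites, the bases where methylation sits, was 20 for Ppp1r3c, 14 for Ldhb, 9 for Gbe1, 6 for Pdk4 and 1 for Pgam2. Over 53 RefSeq windows of 36 members (250 bases before to 50 after the start), the hypoxia core stood in 41.5% against 19.6% of all 32851 windows, and the E-box in 26.4% against 16.3%. MEF2 stood in 5.66% against 3.19%, CCAAT in 41.5% against 37.4%, TATAAA in 5.66% against 13.6%, and the forkhead letters in 1.89% against 3.65%. Windows of the same gene overlap, and a match is a run of letters and no proof of binding.

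Between 2 m and 20 m, all 6 glycogen synthesis genes rose, 3 of 7 lower glycolysis genes fell and none of them rose, and the mitochondrial gatekeeper Pdk4 rose 6.35-fold. The question was whether the RNA of the sugar pathway differed between young and aged muscle. Of 37 members tested, 11 were higher and 8 lower at an adjusted p under 0.05, beside 16.6% of all 13178 tested genes (9.42% higher and 7.13% lower). With a mean of at least 50 normalized counts required, 11 and 8 members were called, beside 19.1% of genes. Neither share was matched to the members' level, and many members are abundant. The called members were 1 of 4 in glucose uptake, 3 of 8 tested in upper glycolysis, 3 of 7 in lower glycolysis, 3 of 5 at lactate and pyruvate, 1 of 2 side reactions, 2 of 5 in glycogen breakdown and 6 of 6 in glycogen synthesis. The split was 6 higher and 10 lower after quantile normalization (16.0% of all genes called), 4 and 1 when all libraries were scaled to the same sum (4.45%; Pdk4, Gbe1, Ppp1r3c and Ldhb higher, Gpd1 lower), and 7 and 8 when that sum left out Rn45s (14.8%). The median log2 fold change of the members was −0.10 and that of all tested genes −0.017. The members' median was −0.044 without 20 m library 3, −0.024 without all libraries numbered 3 and −0.0046 with the trend with transcript length removed. By the rule of a fold change over 2 with an unadjusted p under 0.05, which 5.17% of all tested genes met, Pdk4 was called and no other member. Without the libraries numbered 3, 6 members were higher (Pdk4, Gbe1, Ugp2, Ppp1r3c, Pfkfb1 and Phka1) and 3 lower (Gpd1, Pgam2 and Tpi1), beside 8.34% of all genes. The count was 12 without 2 m library 1 (10.6% of all genes) and 9 without 20 m library 1 (8.20%), so the share of all genes fell together with that of the members.

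**Figure D1:**
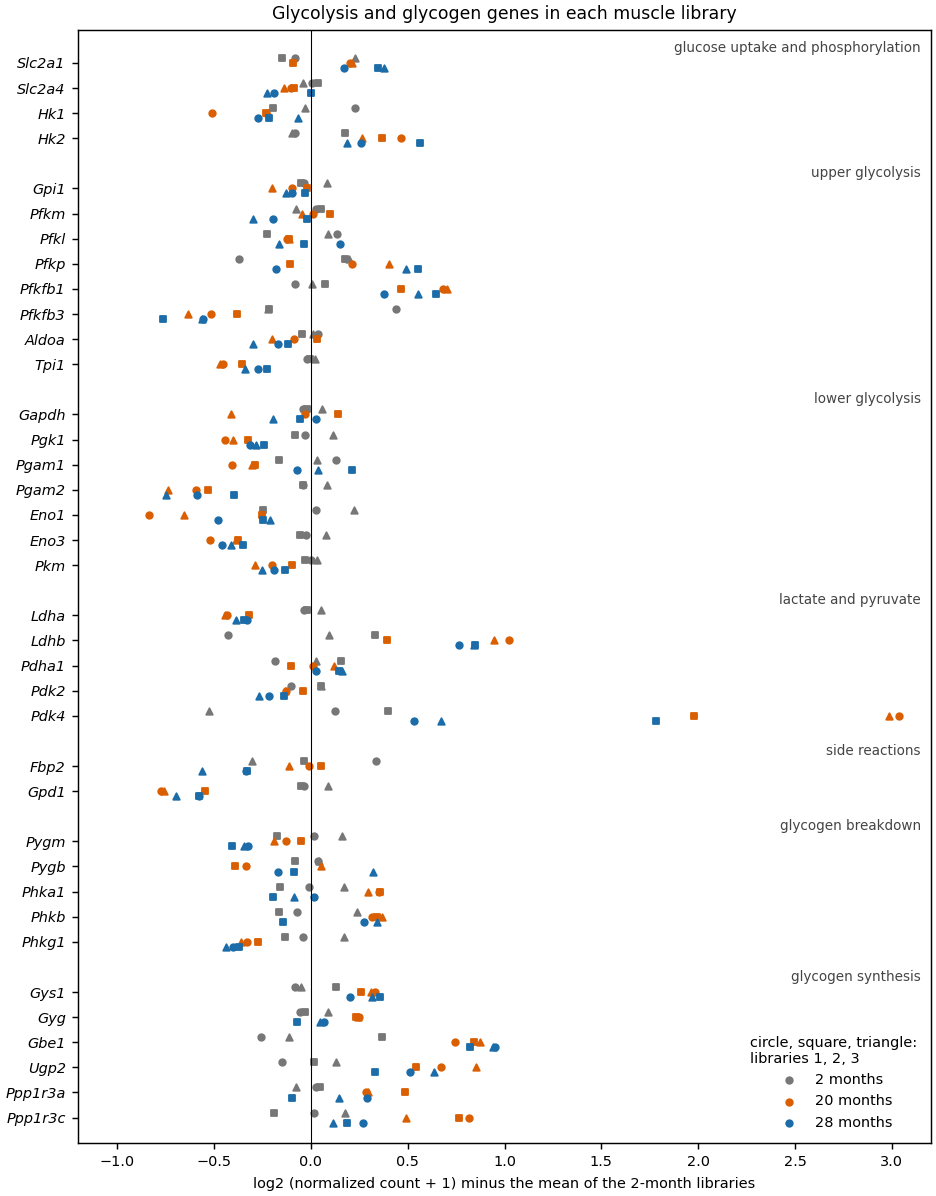
Each point is the log2 (normalized count + 1) of 1 gene in 1 library minus the mean of that gene over the 3 libraries at 2 m, with the 37 tested genes listed by role. The glycogen synthesis genes sit to the right of 0 in all 3 libraries at 20 m, and Pdk4 reaches the far right at 20 m with a fold change of 6.35.

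Each of the 6 glycogen synthesis genes was called higher at 20 m, with a median log2 fold change of 0.52. The called genes of this group were 2 of 6 after scaling to the same sum, 3 of 6 after quantile normalization, 3 of 6 with no filter on low counts and 4 of 6 with the sum without Rn45s, and the medians then ran from 0.39 to 0.54. Of 11 other tested genes of glycogen synthesis and its control, read from a wider list, 1 was higher (Ppp1r3d) and 10 were not called, with a median of 0.030. Gbe1 makes the branches of glycogen, and it read 2298, 3544 and 2543 normalized counts in libraries 1 to 3 at 2 m, 4603, 4932 and 5024 at 20 m, and 5313, 4859 and 5277 at 28 m. Every library at 20 m and 28 m lay above every library at 2 m. Its log2 fold change was 0.82 ± 0.13 (SE) at 20 m (adjusted p 0.00118) and 0.91 ± 0.13 at 28 m (adjusted p 0.000597), and the call held in each of the 14 alternatives and 9 leave-outs at both ages. Ugp2 makes UDP-glucose, the building block of glycogen, and it read 19902, 22349 and 24164 at 2 m, 35103, 32165 and 39826 at 20 m, and 31510, 27805 and 34355 at 28 m. The ages 20 m and 28 m overlapped each other and both lay wholly above 2 m. The log2 fold changes of Ugp2 were 0.69 ± 0.11 (adjusted p 0.00136) at 20 m and 0.50 ± 0.11 (adjusted p 0.0107) at 28 m, and at 28 m the call was lost without 2 m library 1 or 28 m library 3 (adjusted p up to 0.0522). After scaling to the same sum neither call of Ugp2 was kept (adjusted p 0.0564 and 0.222).

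Ppp1r3c carries protein phosphatase 1 to glycogen, where it switches glycogen synthase on. It read 17931, 15526 and 20030 at 2 m, 31187, 30091 and 24943 at 20 m, and 21342, 20198 and 19175 at 28 m. The 20 m libraries stood above all others, while 2 m and 28 m overlapped. The log2 fold change was 0.69 ± 0.11 at 20 m (adjusted p 0.00131), and this call held in every alternative and leave-out. At 28 m it was 0.19 ± 0.11 (adjusted p 0.283).

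Gys1, the muscle glycogen synthase, read 18897, 21900 and 19330 at 2 m, 25135, 23929 and 24786 at 20 m, and 23016, 25612 and 24892 at 28 m. Both older ages lay above 2 m without overlap, by 0.30 ± 0.083 (adjusted p 0.0271) and 0.29 ± 0.083 (adjusted p 0.0343) on the log2 scale. The remaining pair at 20 m were Gyg (glycogenin, which starts the glycogen particle; 0.24 ± 0.074, adjusted p 0.0413) and Ppp1r3a (the main muscle glycogen-targeting subunit of the same phosphatase; 0.36 ± 0.10, adjusted p 0.0323). At 28 m neither was called, at 0.015 ± 0.074 and 0.11 ± 0.10. These 3 calls at 20 m were less firm than those of Gbe1, Ugp2 and Ppp1r3c. Gys1 was lost without 2 m library 1 or 3 or any 20 m library, Ppp1r3a without 2 m library 1 or 3 or 20 m library 1 or 2, and Gyg without 2 m library 1 or 2, any 20 m library or 28 m library 1 or 3, with adjusted p up to 0.105, 0.131 and 0.130. Without the libraries numbered 3, the called genes of this group at 20 m were 3 of 6. At 28 m Gys1 was lost without any 1 of 7 libraries (2 m library 1 or 3, 20 m library 1 or 2, or any 28 m library), with adjusted p up to 0.128, and without the libraries numbered 3 (adjusted p 0.204).

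**Figure D2:**
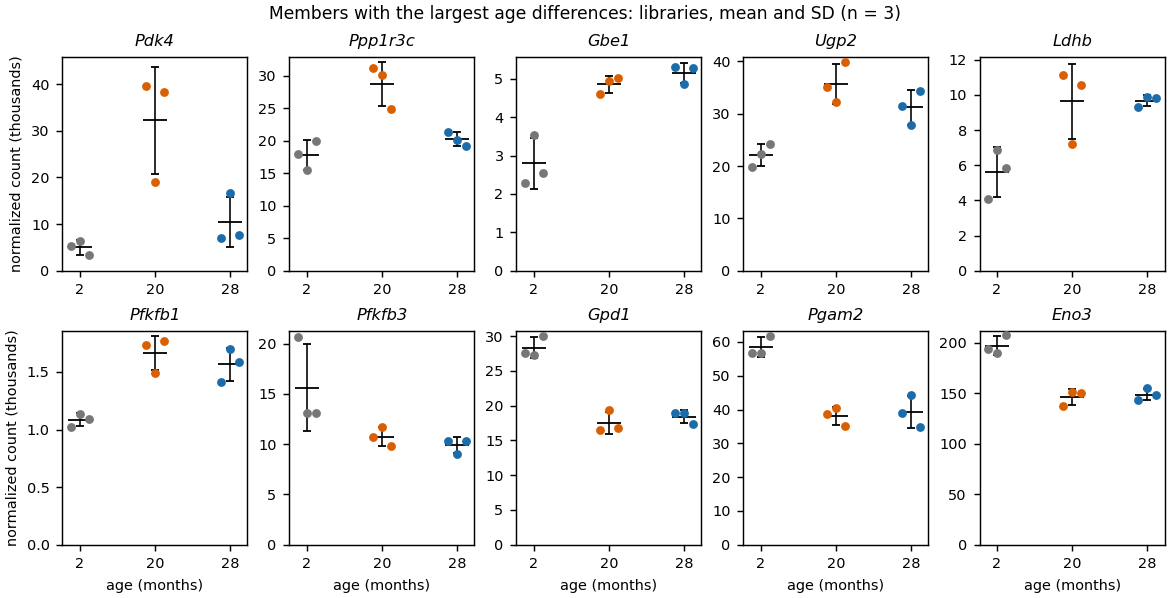
Normalized counts divided by 1000, from 0, of 10 members with large called changes, with 1 point per library and the mean and SD of 3 libraries per age. The points of Pdk4 and Ppp1r3c at 20 m lie above all their other points, whereas those of Gpd1, Pgam2 and Eno3 at 20 m and 28 m overlap and lie below those at 2 m.

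In glycogen breakdown the members did not move together, and Pygm, which releases the glucose units, was not called at either age. Pygm read 333200, 291959 and 369068 at 2 m, 301833, 318124 and 288852 at 20 m, and 263484, 248776 and 260076 at 28 m. The 28 m libraries were below every library of the other ages, and 2 m and 20 m overlapped. The log2 fold change of Pygm was −0.12 ± 0.14 (adjusted p 0.574) at 20 m and −0.36 ± 0.14 (adjusted p 0.106) at 28 m, and edgeR and DESeq2 called the latter.

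Phosphorylase kinase, which activates the phosphorylase, has a regulatory subunit encoded by Phka1, a scaffold subunit by Phkb and a catalytic muscle subunit by Phkg1. Phkg1 fell at both older ages, with log2 fold changes of −0.32 ± 0.084 (adjusted p 0.0213) and −0.40 ± 0.084 (adjusted p 0.00756). At 20 m the call was lost without 2 m library 3, 20 m library 1 or 20 m library 3 (adjusted p up to 0.0784), and at neither age was it kept without the libraries numbered 3 (adjusted p 0.145 and 0.0787) or after scaling to the same sum. Phka1 rose by 0.33 ± 0.10 at 20 m (adjusted p 0.0352), a call lost without 2 m library 1 or 2 or any 20 m library (adjusted p up to 0.115), and stood at −0.090 ± 0.098 at 28 m. Phkb stood at 0.34 ± 0.13 (adjusted p 0.0869) at 20 m and 0.16 ± 0.13 at 28 m. At 20 m Phkb was called in 2 of 14 alternatives, the replicate number as a block and a term for the libraries numbered 3 (adjusted p down to 0.0219). Of 9 leave-outs, 2 called Phkb at 20 m, those of 2 m library 3 and 28 m library 2 (adjusted p down to 0.0325). Pygb had 381 to 416 normalized counts at 2 m and log2 fold changes of −0.22 ± 0.16 (20 m) and 0.022 ± 0.16 (28 m).

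In lower glycolysis, 7 of 7 log2 fold changes at 20 m were below 0, with a median of −0.39, and the muscle forms Pgam2 and Eno3 and the kinase Pgk1 were called. Gapdh turned above 0 without the libraries numbered 3 (0.086), without 20 m library 3 alone and with the length trend removed. Pgam2 read 56770, 56785 and 61841 at 2 m, 38768, 40436 and 35022 at 20 m, and 38911, 44303 and 34806 at 28 m. Its older libraries were all below the youngest, and 20 m and 28 m overlapped. Pgam2 fell by 34.9% at 20 m (log2 fold change −0.62 ± 0.10, adjusted p 0.00178) and by 33.0% at 28 m (−0.58 ± 0.10, adjusted p 0.00301). After scaling to the same sum neither call of Pgam2 was kept (adjusted p 0.0799 and 0.148). The called genes of lower glycolysis were then 0 of 7 at both ages. They were 1 of 7 at both ages without the libraries numbered 3, and 4 and 2 of 7 after quantile normalization. Eno3 read 193749, 189793 and 208090 at 2 m, 137436, 151674 and 150723 at 20 m, and 143154, 154778 and 148311 at 28 m. It was lower at both ages without overlap, with log2 fold changes of −0.43 ± 0.11 (adjusted p 0.0194) and −0.41 ± 0.11 (adjusted p 0.0275), but the calls were lost without 2 m library 1 or 3 (both ages), 20 m library 1 (at 20 m) or 28 m library 1 or 3 (at 28 m), with adjusted p up to 0.101 and 0.105, and without the libraries numbered 3 (adjusted p 0.0919 and 0.163).

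Pgk1, which makes the first ATP of the pathway, fell, with log2 fold changes of −0.39 ± 0.079 (adjusted p 0.00606) and −0.28 ± 0.079 (adjusted p 0.0343), the latter lost without 2 m library 1 or 3, 20 m library 1 or 28 m library 1 or 3 (adjusted p up to 0.114). Without the libraries numbered 3 neither call of Pgk1 was kept (adjusted p 0.0607 and 0.208). Gapdh, the dehydrogenase of the pathway, stood at −0.099 ± 0.12 and −0.075 ± 0.12. Pkm stood at −0.19 ± 0.10 (adjusted p 0.222) and −0.19 ± 0.10 (adjusted p 0.253). The forms used outside muscle were low, with Pgam1 at 215 to 330 and Eno1 at 84.1 to 176 normalized counts over all libraries. The log2 fold changes of Pgam1 were −0.33 ± 0.14 (adjusted p 0.123) at 20 m and 0.061 ± 0.14 (adjusted p 0.817) at 28 m, where it was the 1 gene of the 7 above 0. Those of Eno1 were −0.58 ± 0.21 (adjusted p 0.0813) and −0.31 ± 0.21 (adjusted p 0.372).

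Upper glycolysis moved in both directions, from −0.51 to 0.62 on the log2 scale at 20 m, with 1 of 8 tested genes higher and 2 lower. Pfkm, the committed step of the pathway, read 150549, 153320 and 140606 at 2 m, 148999, 158594 and 143359 at 20 m, and 129121, 146282 and 120198 at 28 m. The ages overlapped, with log2 fold changes of 0.021 ± 0.11 at 20 m, whose sign turned with the scaling, and −0.17 ± 0.11 (adjusted p 0.358) at 28 m. Tpi1 fell, with log2 fold changes of −0.43 ± 0.085 (adjusted p 0.00527) and −0.28 ± 0.085 (adjusted p 0.0458) and no overlap with 2 m. The fall of Tpi1 at 28 m lost its call in every leave-out but that of 28 m library 2 (adjusted p up to 0.150), and without the libraries numbered 3 (adjusted p 0.225). Aldoa stood at −0.086 ± 0.16 and −0.20 ± 0.16, and Gpi1, which turns glucose phosphate into fructose phosphate, at −0.11 ± 0.082 and −0.086 ± 0.082. Pfkl stood at −0.12 ± 0.13 and −0.016 ± 0.13 from 435 to 565 normalized counts, and Pfkp at 0.17 ± 0.23 and 0.29 ± 0.23 from 163 to 309.

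Of the family of bifunctional enzymes that set the signal for phosphofructokinase, the members Pfkfb1 and Pfkfb3 moved in opposite directions, and the other two, Pfkfb2 and Pfkfb4, stood at 0.15 ± 0.19 and 0.11 ± 0.091 at 20 m (adjusted p 0.631 and 0.457). Pfkfb1, the form of liver and muscle, read 1025, 1138 and 1089 at 2 m, 1737, 1495 and 1767 at 20 m, and 1410, 1696 and 1589 at 28 m. Every older library was above every young one, with log2 fold changes of 0.62 ± 0.10 (adjusted p 0.00136) and 0.53 ± 0.10 (adjusted p 0.00405), calls that were lost after scaling to the same sum (adjusted p 0.0994 and 0.176). Pfkfb3, an inducible form with high kinase activity, read 20657, 13140 and 13070 at 2 m, 10670, 11693 and 9835 at 20 m, and 10359, 8982 and 10339 at 28 m. The older libraries were below all young ones, and 2 m library 1 stood high. The log2 fold changes of Pfkfb3 were −0.51 ± 0.15 (adjusted p 0.035) and −0.63 ± 0.15 (adjusted p 0.0152), and −0.29 and −0.41 without 2 m library 1. The first was lost without 2 m library 1, any 20 m library or 28 m library 2 (adjusted p up to 0.102) or the libraries numbered 3 (adjusted p 0.0809), and the second without 28 m library 2 (adjusted p 0.0625). Per kb, Pfkfb1 was 9.11 to 14.9% of Pfkfb1 and Pfkfb3 together at 2 m, 20.5 to 26.6% at 20 m and 21.6 to 27.6% at 28 m (exact permutation p 0.1 for either age against 2 m, two-sided, the smallest that 3 against 3 libraries allow).

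Of the entry genes, Hk2 traps glucose in the cell by phosphorylation, and it read 13968, 16728 and 13814 at 2 m, 20418, 19046 and 17721 at 20 m, and 17703, 21846 and 16795 at 28 m. Both older ages lay above 2 m, narrowly at 28 m. The log2 fold change of Hk2 was 0.36 ± 0.11 (adjusted p 0.0405) at 20 m, a call lost without 2 m library 1 or 3, 20 m library 1 or 2 or 28 m library 1 (adjusted p up to 0.157) or the libraries numbered 3 (adjusted p 0.0989), and 0.34 ± 0.11 (adjusted p 0.062) at 28 m. At 28 m Hk2 was called in 4 of 14 alternatives (adjusted p down to 0.0134). These were DESeq2, the replicate number as a block, a term for the libraries numbered 3 and the sum without Rn45s. Of 9 leave-outs, 1 called Hk2 at 28 m, that of 2 m library 2 (adjusted p 0.0241). Slc2a4 read 23410, 23886 and 22627 at 2 m, 21701, 21945 and 21202 at 20 m, and 20409, 23322 and 19919 at 28 m. Its 20 m libraries lay just below those at 2 m, and 28 m overlapped both. The log2 fold changes of Slc2a4 were −0.11 ± 0.080 (adjusted p 0.382) and −0.14 ± 0.080 (adjusted p 0.282). Slc2a1 stood at 0.11 ± 0.14 and 0.30 ± 0.14 from 358 to 515 normalized counts, and Hk1 at −0.32 ± 0.14 and −0.19 ± 0.14 from 377 to 631, and none of the 4 differences passed.

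At the branch after pyruvate, Pdk4 showed the widest change of all members. Pdk4 encodes a kinase that shuts pyruvate dehydrogenase and so spares glucose, and it is known to rise in fasting muscle. It read 5262, 6353 and 3345 at 2 m, 39564, 18994 and 38187 at 20 m, and 6979, 16592 and 7668 at 28 m. All 20 m libraries stood above all others, and the 28 m libraries stood above those at 2 m. Means were 4987 ± 1522, 32248 ± 11499 and 10413 ± 5362 (SD, n = 3 each). The log2 fold change was 2.67 ± 0.34 at 20 m (adjusted p 0.000288), held in every alternative and leave-out, and 1.00 ± 0.34 at 28 m (adjusted p 0.0702). The value at 28 m was called after scaling to the same sum (adjusted p 0.0163) and without 2 m library 2 or 20 m library 2 (adjusted p down to 0.0439), and its log2 fold change was 0.60 without 28 m library 2. Pdk2, the other pyruvate dehydrogenase kinase of the list, stood at −0.10 ± 0.078 and −0.21 ± 0.078 (adjusted p 0.406 and 0.0964). Pdk4 per kb was 10.5 to 18.2% of Pdk2 and Pdk4 together at 2 m, 41.5 to 61.0% at 20 m and 22.7 to 39.8% at 28 m, without overlap (exact permutation p 0.1, two-sided, for each pair of ages). Pdha1, a subunit of the dehydrogenase that these kinases act on, stood at 0.010 ± 0.098 and 0.11 ± 0.098.

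The lactate dehydrogenase genes moved apart. Ldhb, the form of heart and slow muscle, which favours turning lactate into pyruvate, read 4077, 6890 and 5853 at 2 m, 11139, 7196 and 10572 at 20 m, and 9295, 9870 and 9841 at 28 m. The older libraries were above all young ones, though 20 m library 2 only just. The log2 fold changes of Ldhb were 0.79 ± 0.18 (adjusted p 0.0111) and 0.82 ± 0.18 (adjusted p 0.0103), and at 20 m the call was lost without 20 m library 1 (adjusted p 0.0605). Without the libraries numbered 3 neither call was kept (adjusted p 0.0794 and 0.0718). Ldha fell, with log2 fold changes of −0.40 ± 0.093 (adjusted p 0.0126) and −0.35 ± 0.093 (adjusted p 0.0244). The calls of Ldha were lost, with adjusted p up to 0.0661 without 20 m library 1 at 20 m, up to 0.0876 without 2 m library 1 or 3 or 28 m library 1 or 3 at 28 m, and 0.0907 and 0.161 without the libraries numbered 3. Per kb, Ldhb was 5.37, 8.64 and 7.10% of both genes at 2 m, 16.9, 10.8 and 16.3% at 20 m, and 13.7, 14.5 and 14.9% at 28 m. Both older ages lay above 2 m (exact permutation p 0.1 each, two-sided, the smallest possible here).

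Slow fibre genes moved with these results. Of the 10 slow fibre markers, 9 rose at 20 m and 10 at 28 m, and their summed normalized count was 18359 to 138648 at 2 m, 188015 to 329936 at 20 m and 232921 to 292326 at 28 m. Myh7, the slow myosin, read 2773, 44700 and 8400 at 2 m, 109827, 62731 and 88434 at 20 m and 107845, 80566 and 112463 at 28 m. Its order among the libraries was that of Ldhb at 2 m and 20 m and differed from it at 28 m. Of the 12 fast fibre markers, 4 fell at 20 m and 5 at 28 m and none rose, with sums of 6542735 to 7629515 at 2 m, 5966525 to 7053785 at 20 m and 5508947 to 5838615 at 28 m. Of the 6 fibroblast markers, 3 fell at each age (sums 51087 to 106411, 21889 to 24764 and 21815 to 29894). Of the 8 adipocyte markers, 1 rose and 5 fell at 20 m and 2 fell at 28 m, and neutrophil and marrow genes summed to 5140 in 2 m library 1, to 69.3 and 72.2 in the other 2 m libraries, and to 14.9 to 74.2 in the 20 m and 28 m libraries. Macrophage markers fell in 2 of 8 and Schwann cell markers in 1 of 6 at 20 m and in none at 28 m. Every fast fibre, slow fibre, adipocyte and fibroblast marker was above 0 at every age. Which hindlimb muscles or cells each powder held, and their part in the members' differences, was not tested.

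The side reactions were led by Gpd1, which makes glycerol phosphate from a glycolytic intermediate and carries reducing power towards the mitochondria. Gpd1 read 27623, 27289 and 30042 at 2 m, 16525, 19375 and 16742 at 20 m, and 18929, 18967 and 17439 at 28 m. The older libraries were far below the young ones and overlapped each other. Gpd1 fell by 38.1% at 20 m (log2 fold change −0.69 ± 0.086, adjusted p 0.000237) and by 34.9% at 28 m (−0.62 ± 0.086, adjusted p 0.000532), and no leave-out ended either call, while at 28 m scaling to the same sum did (adjusted p 0.0949). Fbp2, the muscle fructose bisphosphatase, stood at −0.024 ± 0.14 at 20 m and −0.41 ± 0.14 at 28 m (adjusted p 0.0622), a value called without 2 m library 3 (adjusted p 0.011), by DESeq2 and after quantile normalization.

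**Figure D3:**
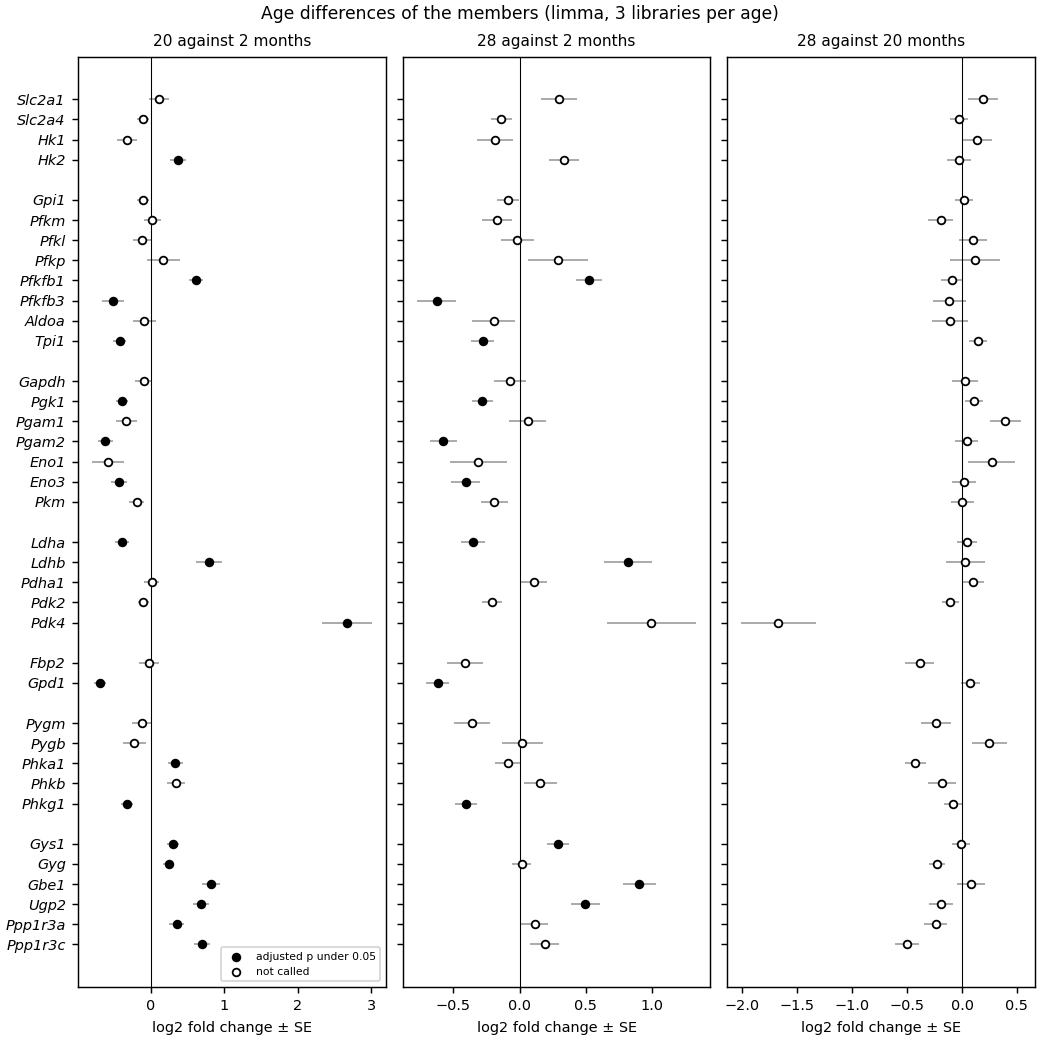
Log2 fold change ± SE of the 37 tested members, by limma, in each of the 3 comparisons of ages, with filled points at an adjusted p under 0.05. The filled points number 19 at 20 m and 13 at 28 m against 2 m, and there are none between 20 m and 28 m.

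At 28 m against 2 m, the branching enzyme Gbe1, the supplier Ugp2 and glycogen synthase Gys1 were higher, the lower glycolysis genes Pgam2, Eno3 and Pgk1 were lower, and Pdk4 was not called. Here 5 of 37 members were higher (Gbe1, Ldhb, Pfkfb1, Ugp2 and Gys1) and 8 lower (Pfkfb3, Gpd1, Pgam2, Eno3, Phkg1, Ldha, Pgk1 and Tpi1), beside 13.8% of all tested genes (7.53% higher and 6.24% lower). Scaling to the same sum gave 3 higher (Gbe1, Ldhb and Pdk4) and none lower (4.20% of all genes), and 6 and 6 when that sum left out Rn45s (13.5%). The median of the members was −0.086 and that of all tested genes −0.011, and the members' median was −0.043 without 2 m library 3 and −0.022 without all libraries numbered 3. No member passed the rule of a fold over 2, which 5.14% of all tested genes met. Both older ages were set against the same 3 young libraries, so the values at 20 m and 28 m are not independent of each other. The count was 6 without the libraries numbered 3 (Gbe1, Ugp2 and Pfkfb1 higher, Pfkfb3, Gpd1 and Pgam2 lower; 5.40% of all genes), 7 without 2 m library 1 (8.40%) or without 28 m library 3 (8.17%), and 8 without 28 m library 1 (7.31%).

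Between 20 m and 28 m, no member passed an adjusted p under 0.05 in the main limma fit, beside 0.379% of all tested genes, and 7 of 37 members had an unadjusted p under 0.05, beside 10.6% of all tested genes. edgeR called none (0.387% of all genes) and DESeq2 called 3 (1.73% of all genes), all lower at 28 m: Pdk4, Ppp1r3c and Phka1. Pdk4 stood 3.18-fold lower at 28 m than at 20 m (log2 fold change −1.67 ± 0.34, adjusted p 0.0655), with all 3 libraries at 28 m below all at 20 m, and adjusted p was 0.405 without the libraries numbered 3. Pdk4 was also the member that passed the rule of a fold over 2, beside 1.31% of all tested genes. Ppp1r3c stood at −0.50 ± 0.11 (adjusted p 0.0853) and Phka1 at −0.42 ± 0.10 (adjusted p 0.111), each without overlap. Pdk4 was called without 2 m library 2 or 3, 20 m library 2 or 28 m library 2, and Ppp1r3c without 2 m library 2, and their adjusted p over all leave-outs ran from 0.0286 to 0.322 and from 0.0377 to 0.376. Of 14 alternatives, 4 called Pdk4 and 2 each called Phka1 and Ppp1r3c. Besides DESeq2, limma with the replicate number as a block called all 3 genes (adjusted p 0.0403, 0.0396 and 0.0406). Limma also called Pdk4 after scaling to the same sum (adjusted p 0.000883) and with a term for the libraries numbered 3. The other 4 with an unadjusted p under 0.05 were Pgam1 (0.39 ± 0.14), Fbp2 (−0.39 ± 0.14), Gyg (−0.23 ± 0.074) and Ppp1r3a (−0.24 ± 0.10). In glycogen synthesis 5 of 6 log2 fold changes were below 0, with a median of −0.21 beside −0.0026 for all tested genes.

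Transcript length moved with these differences. At 20 m the median log2 fold change of all tested genes rose from −0.13 in the shortest to 0.13 in the longest of 5 groups of equal size by exonic length, and Spearman's rho across genes was 0.23 for 13136 genes and 0.28 for the 37 members, which share the same libraries. Pgam2 had 906 exonic bases, and Ldhb, with 1304, stood above 0 among short genes. Ppp1r3a, Phka1 and Hk2 had 7120, 6115 and 5513 exonic bases, and these 3 lost their calls at 20 m when the trend with length was removed. Gbe1 (2988 bases), Ppp1r3c (2676), Ugp2 (3100), Pdk4 (3453) and Gpd1 (2798) lay between these, and their calls were kept. With the trend removed, 8 members were higher and 8 lower at 20 m, and 5 of the 6 glycogen synthesis genes stayed called.

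**Figure D4:**
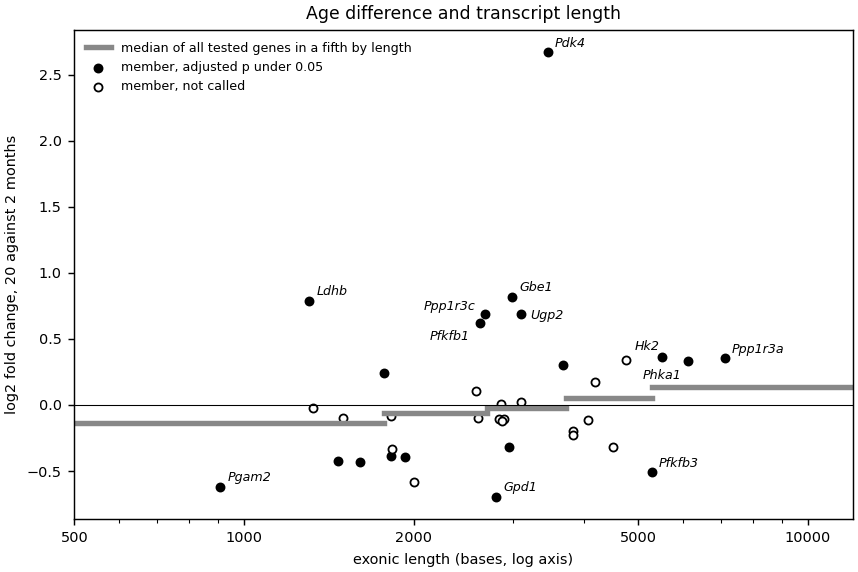
Log2 fold change at 20 m against 2 m of the 37 tested members by exonic length on a log axis, with bars for the median of all tested genes in each of 5 groups by length (the last bar runs past the axis). The bars climb from −0.13 to 0.13, and Pdk4, Gbe1, Ldhb, Ppp1r3c and Ugp2 lie above them while Gpd1, Pgam2 and Pfkfb3 lie below.

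Other genes of sugar use were read from a list of 76, of which 66 were tested. At 20 m 6 were higher and 7 lower, and at 28 m 4 and 10, beside the shares of all genes given above, and between 20 m and 28 m limma called none, where 7 of 66 had an unadjusted p under 0.05, beside 10.6% of all tested genes. Tbc1d1, which gates the release of GLUT4 to the surface, read 2436, 3318 and 1858 at 2 m, 4392, 5981 and 4960 at 20 m, and 3987, 4276 and 3612 at 28 m. It was higher without overlap at both ages (log2 fold changes 1.04 ± 0.17, adjusted p 0.00171, and 0.68 ± 0.17, adjusted p 0.0203). Pygl, the liver phosphorylase, fell, with log2 fold changes of −1.94 ± 0.37 (adjusted p 0.00407) and −1.88 ± 0.37 (adjusted p 0.00551) from a low level of 144 to 383 normalized counts at 2 m. Pcx, which feeds pyruvate to the mitochondria as oxaloacetate, fell, with log2 fold changes of −0.82 ± 0.11 (adjusted p 0.000363) and −0.81 ± 0.11 (adjusted p 0.000394). Gpd2, the mitochondrial partner of Gpd1, fell, with log2 fold changes of −0.39 ± 0.11 (adjusted p 0.0323) and −0.69 ± 0.11 (adjusted p 0.00179). Pgm5, a relative of the phosphoglucomutases, rose by 0.60 ± 0.11 (adjusted p 0.0038) and 0.75 ± 0.11 (adjusted p 0.000889), and Ppp1r3d, another glycogen-targeting subunit, rose at 20 m by 0.78 ± 0.24 (adjusted p 0.0399).

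The start sites of the members were then read in the MBD-seq table, where higher normalized counts mean more captured DNA. The paper calls the method semiquantitative, since it gives no direct measure of CpG methylation. Levels at different starts therefore do not rank their methylation. Each value is the mean of the 500-bp bins within 1000 bp of the start, and the table holds 1 column per age and tissue, from DNA pooled over 3 mice, so there is no replicate check and no test. The median over the 38 members was 7.82, 6.31 and 7.71 in muscle at 2 m, 20 m and 28 m, beside 7.46, 7.24 and 9.43 over 13136 tested genes. In T cells it was 11.4, 10.2 and 10.2, beside 8.93, 11.0 and 11.4. With 500 bp on each side of the start, the members' medians were 4.55, 2.81 and 6.27 in muscle and 4.06, 7.91 and 7.27 in T cells, so the order of the ages differed between the windows in both tissues. The direction between the tissues depended on the scaling, since the deposited values summed to 199219943 to 249494137 in the T cell libraries and to 123104731, 113880888 and 90435044 in muscle at 2 m, 20 m and 28 m. As deposited, T cells were higher at 26, 29 and 23 of the 38 members (68.4, 76.3 and 60.5%), beside 60.4, 72.2 and 56.2% of all tested genes. With all libraries scaled to the same sum, they were higher at 14, 15 and 8 members (36.8, 39.5 and 21.1%), beside 26.4, 26.5 and 14.8%. The members' medians were then 10.8, 9.43 and 14.5 in muscle and 9.70, 7.12 and 6.94 in T cells, beside 10.3, 10.8 and 17.7 and 7.62, 7.63 and 7.75 over all tested genes.

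Among single starts, chosen after their values were seen, Pygm read 7.46, 9.77 and 9.18 in muscle and 44.9, 50.1 and 61.3 in T cells. Slc2a4 read 2.73, 1.68 and 6.63 in muscle and 15.4, 21.7 and 15.6 in T cells. Both starts were lower in muscle than in T cells at each age, which held for Pygm at every age and for Slc2a4 at 2 m and 20 m after scaling to the same sum, where Slc2a4 at 28 m read 12.5 in muscle and 10.6 in T cells. Pkm, Phkb and Eno3 read 4.21 or less in every column as deposited, and up to 7.91, 5.99 and 4.31 in muscle at 28 m after scaling to the same sum. The highest autosomal start in muscle at 2 m was that of Fbp2, with 36.4, 21.9 and 18.7 over the 3 ages in muscle and 68.0, 86.9 and 94.6 in T cells.

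The 4 members on the X chromosome (Pfkfb1, Pgk1, Pdha1 and Phka1) read 28.0 to 42.6 in muscle at 2 m, 20.4 to 40.4 at 20 m and 15.6 to 19.8 at 28 m, well above the autosomal members' medians of 7.37, 6.06 and 7.46. Scaled to the same sum, they read 38.7 to 58.8, 30.4 to 60.3 and 29.2 to 37.1, beside autosomal medians of 10.2, 9.05 and 14.0. All 440 tested X-linked genes had medians of 26.0, 21.7 and 15.2 in the same columns as deposited, and in female cells 1 copy of the X is silenced and methylated. Of these 4, Pfkfb1 rose, Pgk1 fell, Phka1 rose at 20 m and Pdha1 was not called. At the starts of the 7 genes with the largest called RNA changes at 20 m, as deposited, Pdk4 read 11.8, 5.39 and 9.94 in muscle, Gbe1 5.46, 5.89 and 6.50, Ugp2 1.27, 1.18 and 4.97, Ldhb 12.2, 10.6 and 7.52, and Ppp1r3c 9.64, 12.5 and 9.18. Gpd1 read 29.8, 24.4 and 16.7 and Pgam2 18.9, 14.0 and 15.9. After scaling to the same sum, the direction from 2 m to 28 m turned for Pdk4 (16.3 to 18.7), Ppp1r3c (13.3 to 17.3) and Pgam2 (26.1 to 30.0).

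**Figure D5:**
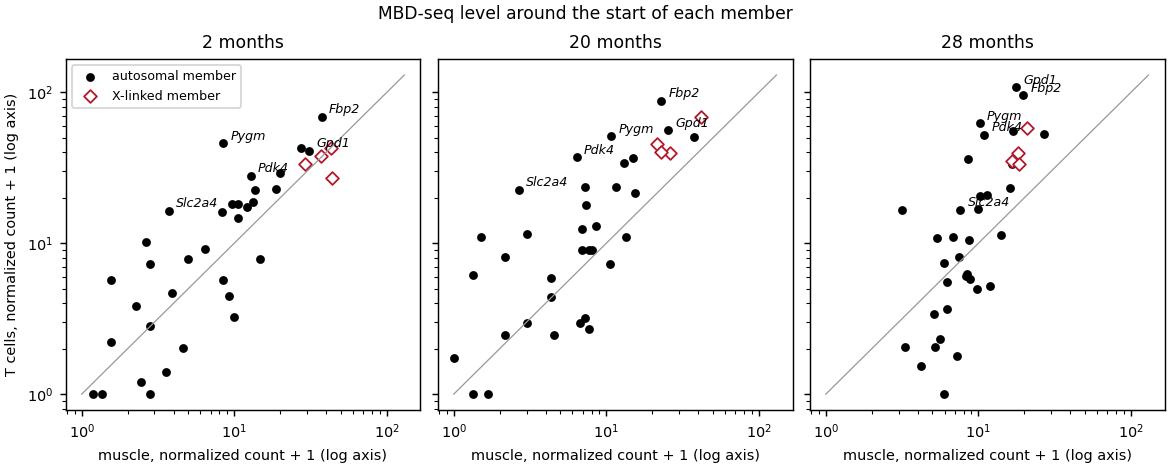
MBD-seq level (mean normalized count + 1, both axes log) within 1000 bp of the start of each of the 38 members, muscle on the horizontal and T cells on the vertical axis, 1 panel per age, 1 column of the table per axis. Points above the diagonal (26, 29 and 23 of 38 as deposited, 14, 15 and 8 with equal sums, not plotted) are higher in T cells, and the 4 X-linked members (diamonds) sit high in both tissues.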

How the data were processed

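RNA-seq was made from poly-A RNA of 3 muscles per age. The authors trimmed reads with Trim Galore, aligned them to mm10 (Hisat2 in the methods, TopHat in the submitters' processing notes), counted them per refSeq gene with htseq-count in the strict intersection mode, and divided them by DESeq2 size factors; the deposited values are this normalized signal. MBD-seq reads were aligned with Bowtie2 and counted in 500-bp bins, and bins not listed were read as 0. Every nonzero RNA value (100%, tolerance 0.01) was a whole multiple of 1 step per library, so reads were recovered. Rows that name no gene held 37.9 to 47.7% of reads and were left out. The kit does not mark strand, so overlapping genes cannot be told apart.

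limma 3.58.1 (R 4.3.3, limma-trend) was fitted on log2 (normalized count + 1) to all 9 libraries with age as the only term, on 13178 genes with a mean of at least 10, with Benjamini-Hochberg adjustment over all of them. edgeR 4.0.16 and DESeq2 1.42.0 were run on the recovered reads. On simulated counts, 137 of 200 genes changed 2-fold (68.5%) and 9 unchanged genes among 13178 were called at 20 against 2 months. Exonic lengths, starts and windows were from RefSeq GRCm38.p6, and 23236 of 23420 rows matched. The members and lists were chosen with earlier results of these data known. Named with all library values were Slc2a4, Hk2, Pfkm, Pygm, Gys1, Pdk4 and, per comparison, the 8 called members with the largest change. Of the 76 other genes, the 5 called ones with the largest change per comparison were named. Libraries of equal number were not paired: among these, only those numbered 3 deviated together above 0.1 (Pearson r 0.109, 0.150 and 0.161 over genes). The unlike pair of 20 m library 2 and 28 m library 1 also did (r 0.117), so this mark does not set the libraries numbered 3 apart. Muscle DNA was captured in 2 rounds, and the column names do not say whether they hold 1 round or both.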

Additional observations from a re-analysis of the deposited data

Results flagged for a closer look

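At 12 of the 38 start sites the MBD-seq level went in opposite directions in the tissues at both older ages as deposited. The differences were not tested, since the table holds 1 column per age and tissue, from pooled DNA. At 9 sites (23.7%, beside 18.1% of 13136 tested genes) the level was lower than at 2 months in muscle and higher in T cells, and at 3 sites (7.89%, beside 8.04%) it was the reverse. The change from 2 to 28 months in T cells minus that in muscle was 80.4 normalized counts at Gpd1 (67.3 against −13.1), 44.3 at Fbp2 (26.6 against −17.7), 29.2 at Pgam2 (26.2 against −2.99), 25.9 at Pdk4 (24.0 against −1.88), 22.0 at Ldhb (17.3 against −4.67) and 4.03 at Eno1 (3.38 against −0.646). At the X-linked starts of Pfkfb1, Pdha1 and Pgk1 it was 38.2, 37.7 and 14.3. It was −11.1 at Phkg1, −3.33 at Pgam1 and −2.03 at Gbe1. The totals of the libraries moved the same way, from 123104731 to 90435044 in muscle and from 199219943 to 249494137 in T cells between 2 and 28 months. Scaled to the same sum, 4 sites were lower in muscle and higher in T cells (10.5%, beside 4.66% of tested genes) and 8 were the reverse (21.1%, beside 19.3%). Gpd1, Fbp2, Ldhb and Pfkfb1 in the first direction and Phkg1, Pgam1 and Gbe1 in the second did so under both scalings, while Pgam2, Pdk4, Eno1, Pdha1 and Pgk1 did so only as deposited.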

How the results depend on the processing

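The count of called members depended on the scaling and the libraries. So did the share of all genes called, given in brackets. At 20 against 2 months (19 members, 16.6%) it was 12 with no filter on low counts (9.61%), 5 after scaling to the same sum (4.45%), 9 without the libraries numbered 3 (8.34%), and 9 to 19 when each library was left out. At 28 against 2 months (13, 13.8%) it was 8 with no filter (8.01%), 3 after scaling to the same sum (4.20%), 8 with only the 2 ages fitted (9.93%), 6 without the libraries numbered 3 (5.40%), and 7 to 14 over the leave-outs. At 28 against 20 months (0, 0.379%) it was 1 after scaling to the same sum (0.182%), 3 with DESeq2 (1.73%), 1 with a term for the libraries numbered 3 (0.782%), and 0 to 2 over the leave-outs. With the replicate number as a block it was 20, 16 and 3 (22.8, 19.2 and 1.05%), but the numbers name samples and do not pair them. The 5 settings chosen after seeing the data were the term for, and the leaving out of, the libraries numbered 3, the removal of the length trend, the sum without Rn45s, and equal sums for the tissue counts of MBD-seq. Scaling to the same sum is set mostly by Rn45s.

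The log2 fold change of Pfkm at 20 against 2 months turned to −0.0058 with quantile normalization and to −0.013 with the sum without Rn45s, and ran from −0.019 to 0.054 over the leave-outs. At 28 against 20 months, the same settings turned Slc2a4 to 0.035 and 0.051, Hk2 to 0.037 and 0.053, and Gys1 to 0.074 and 0.074, and the same sum turned Gys1 to 0.016. Over the leave-outs Slc2a4 ran from −0.10 to 0.013, Hk2 from −0.14 to 0.047 and Gys1 from −0.040 to 0.037. None of these was called. The cause was not tested.

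The median MBD-seq level of the members at 2, 20 and 28 months was 4.55, 2.81 and 6.27 in muscle and 4.06, 7.91 and 7.27 in T cells with 500 bp on each side of the start, and 10.8, 9.43 and 14.5 in muscle and 9.70, 7.12 and 6.94 in T cells with libraries scaled to the same sum. With 3 libraries per age, 68.5% of simulated 2-fold changes were called, so changes may be missed. In the simulation 200 of 13178 genes changed, while 16.6% of genes were called at 20 against 2 months. The simulated share is therefore not the power for these members.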
